A study of Macaca mulatta with 23 samples.

Results

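The stretches of DNA described here are short runs of neighbouring cytosines whose methylation level differed widely from monkey to monkey. Measured autosomal positions at most 200 bp apart were joined into runs, and runs of 10 to 49 positions with values in at least 20 animals were kept. The level of an animal in a run was the mean of its values there, in percent. The runs described had a standard deviation (SD) over animals above 10 percentage points. Of 12248 runs of that length, 650 (5.31%) passed, out of 38064 runs of any length and 444312 positions in all. The runs were thus selected on the SD over animals of these same levels, so their spread and the steps between animals are descriptions and carry no test.

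The study used reduced representation bisulfite sequencing on the central nucleus of the amygdala in 23 young rhesus monkeys (Macaca mulatta), 1 library and 1 hemisphere per monkey. This assay reads CpG-rich fragments cut by MspI. The labels name no treatment, and the animals differed by hemisphere (11 left, 12 right), age (1.1 to 2.13 years) and a continuous score of anxious temperament (-1.48 to 1.43). The identifiers fall into an r series of 12 animals and a B series of 11, named by their first letter, and the labels do not say what this letter means. Animals are named by hemisphere and a number within it. The macaque reads were placed on the human build hg19, per the submitters' processing notes, so runs carry hg19 coordinates and human chromosome bands and no gene names. The table holds levels and no bases. A base difference at a measured cytosine, between the species or between animals, can read as a change in level, and it and a change in methylation cannot be told apart here.

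CpG methylation adds a methyl group to cytosine and, in CpG-rich promoters, goes with stable silencing. Neighbouring CpGs on a DNA molecule tend to share their state, so a run usually behaves as a unit. Most CpG-rich sequence is fully unmethylated or methylated in every individual. The exceptions known from mammals include imprinted regions, methylated on a single parental copy, sites whose methylation follows the nearby DNA sequence, and sites set at random in the early embryo. An average over bulk tissue mixes both copies and all cells, so a change in the mix of cells and a change inside the cells cannot be told apart.

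The widest spread of all was in band 11p15.5, at chromosome 11, 2021948 to 2022065, with 12 positions in 118 bp. The lowest of 22 animals had a level of 1.08%, the median was 26.6% and the highest was 72.7%, for an SD of 28.0 points. Breaks of at least 7 points, a looser limit than the 10 points used for the counts further on, divided the animals into 4 levels. Right 8, left 5, right 12, right 9, left 7, left 4 and left 8 lay between 1.08% and 3.08%, and left 11 stood alone at 12.4%. Another 8 animals lay between 19.6% and 41.3%. The remaining 6, left 10, right 2, right 3, right 5, right 7 and right 11, lay between 68.5% and 72.7%. Between the last 2 levels no animal was found over 27.2 points, and this was the only break of 10 points or more.

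The steps in the 11p15.5 run were carried by positions 4 to 12, while positions 1 to 3 stayed low in every animal. The median over positions of the mean level was 1.57% in the lowest 7 animals, 40.7% in the 8 of the middle step and 94.8% in the top 6. Of the 12 positions, 11 were higher in the top 6 animals than in the rest, and the remaining position was at 0 in every animal with a value. Odd-numbered and even-numbered positions gave nearly the same order of the animals (r = 0.980 over 22 animals, both measured in the same libraries). Left 1, the animal at 19.6%, had values at 5 of the 12 positions and was the only one of the 22 with gaps. The SD of the run was 27.9 points once each position was centred.

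**Figure D1:**
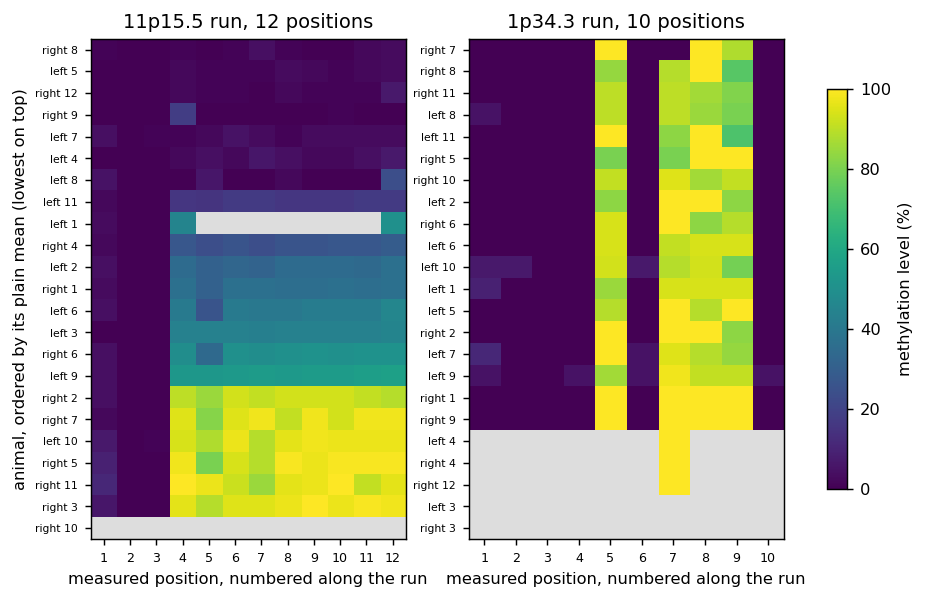
Methylation level in percent (colour) of every animal (rows, lowest plain mean on top) at every measured position (columns) in the 11p15.5 run and in the 1p34.3 run with 10 positions; grey cells have no value. In the first, positions 4 to 12 change together in steps, from a median of 1.57 to 94.8%; in the second, the 3 animals that stood at 100% have a value at 1 position only.

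A plain mean can move when an animal lacks some positions of a run, because positions differ in their own level. The clearest case was a run in 1p34.3, chromosome 1, 38067652 to 38067810, with 10 positions. There 18 animals with all 10 positions lay between 28.8% and 40% and 3 animals, left 4, right 4 and right 12, at 100%. Those 3 had a value at 1 position only, where the other animals averaged 89.7%. Its SD fell from 22.8 to 4.27 points when the levels were centred per position. In 19p13.12, chromosome 19, 15234187 to 15234369, left 3 and right 4 were at 0% from 1 of 14 positions, where the others averaged 0.857%, and the other animals lay between 73.0% and 77.3%. Its SD fell from 22.2 to 1.08 points, the largest fall among the 650 runs.

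The other runs with the largest single steps were of the same kind. Right 4 and right 12 stood at 0% in a 1p36.32 run, each from 1 of 17 positions, and its SD fell from 19.8 to 2.26 points. Right 4 and right 9 stood at 0% in an 8q24.3 run, each from 1 of 12 positions, and its SD fell from 16.1 to 2.64 points. Left 11 and right 12 stood at 100% in an 11q13.1 run from 1 of 10 positions, and its SD fell from 18.9 to 6.30 points. A 7q31.33 run with 10 positions had 3 apparent levels, with left 11 and right 12 at 40%, 15 animals with all positions between 61% and 70%, and left 4, right 10 and right 7 between 95% and 100%. The 5 outlying animals had values at 5 positions each, where the others averaged 39.9% or about 95.5%, and the SD fell from 14.9 to 2.23 points.

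Centring did not settle every case. In a 1p31.1 run, chromosome 1, 70946305 to 70946472, right 4 was at 16% and left 4 at 18% from 1 of 13 positions, where the other animals averaged about 74%. These animals deviated from the others at that same position, which centring does not remove, and the SD was 16.8 points after centring against 18.3 before. When animals needed values at 50% or more of the positions, it was 3.64 points over 18 animals.

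For this reason each run was put through 3 checks. Centred means left 404 of the 650 runs above 10 points and 246 at or below. Values at 50% or more of the positions left 327 above 10 points, 172 not above, and 151 with fewer than 20 animals. Leaving out left 3 and right 9, the animals lacking the most positions (49.7% and 21.2%), left 436 above and 214 at or below. All 3 checks were passed by 213 runs (32.8%), called the held runs below, and none by 87. These were picked after their values were seen and receive no test.

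**Figure D2:**
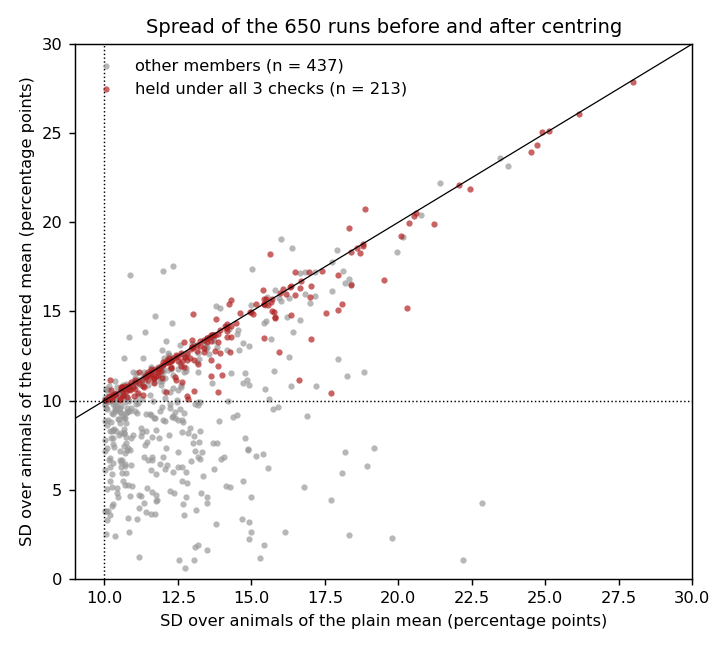
SD over animals of the centred mean (vertical, percentage points) against that of the plain mean (horizontal, percentage points) for the 650 runs; the diagonal marks equality, dotted lines mark 10 points, and the 213 held runs are in red. Of the 650 runs, 246 lie at or below 10 points after centring, and the run with the largest fall drops from 22.2 to 1.08.

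In the other 437 runs a larger share of the far values rested on few positions. Of their 878 animal values at least 20 points from the run's median, 483 (55.0%) came from fewer than 50% of the positions. In the held runs it was 35 of 684 (5.12%). The check on positions was among those that divided the runs, so this difference is partly fixed by the division. Values closer to the median rested on fewer than 50% of the positions in 2.99% and 1.84% of cases.

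The 650 runs lay mostly at intermediate levels. Their median level was 52.0%, and 94.9% of them had a mean between 20% and 80%, against a median of 9.59% and 40.1% of the 11598 runs outside the rule. An SD above 10 points is hard to reach near 0 or 100%. A closer setting is the 4653 runs outside the rule with a mean between 20% and 80%, matched on the run mean only. Their single positions differed more in level, with a median range of position means of 91.9 points. It was 81.8 in the 650 runs and 70.4 in the held runs. The 4653 runs had a median SD of 4.86 points, against 12.2 in the 650 runs and 13.0 in the held runs. This difference is set by the rule. Held runs were short, with a median of 12 positions over 135 bp. Of the held runs, 21.1% lay within 5 Mb of a chromosome end, against 18.1% of the intermediate runs outside the rule.

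Chromosomes 8 and 21 held the highest shares of such runs, with 37 of 402 (9.20%) and 9 of 104 (8.65%). Chromosome 6 held the lowest, with 21 of 560 (3.75%). For held runs the highest shares were on chromosomes 21 (3 of 104, 2.88%), 18 (6 of 209, 2.87%) and 20 (11 of 393, 2.80%), against 213 of 12248 over all autosomes. These counts are small, so the order rests on few runs. Only 9 pairs of neighbouring runs lay within 10 kb of each other. In 4 of these pairs the centred levels of the animals correlated above 0.5, with a median of 0.397 over the 9 pairs.

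In most held runs the differences between animals extended over 50% or more of the positions. A position was counted as moving with its run when its correlation over animals with the mean of the other positions was above 0.5. The median share of such positions was 77.8% in held runs, 40% in the other 437 and 17.4% in the intermediate runs outside the rule. A wider spread by itself raises these shares, and all positions of a run come from the same libraries. In 115 held runs at least 75% of the positions moved with the run, and in 13 fewer than 50% did.

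In most held runs where the strands could be compared, both varied. The table gives no strand, and positions 1 bp apart were taken as the cytosines of a CpG on opposite strands, which is an assumption. At least 3 such pairs in at least 10 animals were found in 98 held runs. The median correlation over animals between the strands was 0.690 there, against 0.279 in 2787 intermediate runs outside the rule. In 80 of the 98 each strand alone had an SD above 10 points. The held runs were selected on the spread over these same positions. A wide spread on each strand and a higher correlation are therefore partly fixed by the rule. The correlation was above 0.5 in 75 of the 98. A 19q13.43 run, chromosome 19, 58887642 to 58887779, went the other way, with r = -0.035 over 17 animals and 5 pairs. In the 17p13.1 run, chromosome 17, 8013217 to 8013398, 19 pairs gave r = 0.918 over 23 animals, with SDs of 18.5 and 16.1 points on the strands. In a 19p13.2 run with 13 pairs r was 0.967.

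**Figure D3:**
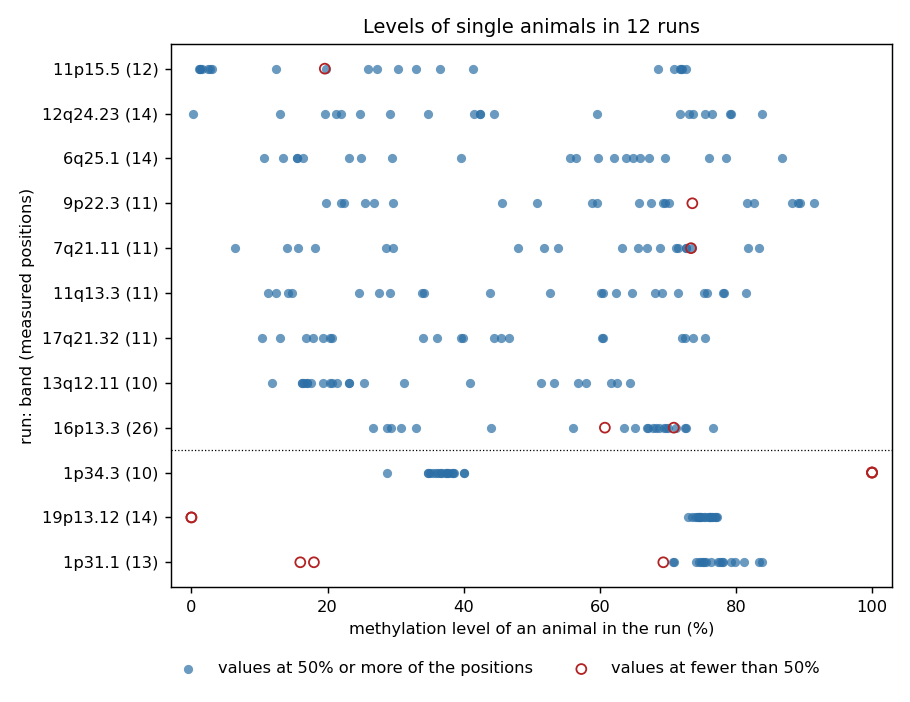
Methylation level of each animal (horizontal, percent) in 12 runs, named by band with the number of positions; filled points have values at 50% or more of the positions, open points at fewer. Above the dotted line are 9 held runs, among them 11p15.5 with its steps from 1.08 to 72.7%; below it are 3 runs in which the far animals are open points.

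Steps between groups of animals were counted as wide gaps, at least 10 points between neighbours in the order of levels with at least 2 animals on each side. Of the 650 runs, 436 had no wide gap, 192 had 1, 21 had 2 and 1 had 3. After centring the counts were 538, 104, 7 and 1, and 86 of the 192 and 6 of the 21 kept their number of gaps. Of the held runs, 145 had no wide gap, 62 had 1, 5 had 2 and 1 had 3. The absence of a wide gap depended on this limit. With gaps of 7 points, 280 of the 650 runs had 1 gap and 68 had 2. The side with fewer animals was 2 animals in 118 of the 192 runs with 1 gap, and 5 or more in 18, of which 12 were held runs.

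Three-level patterns with the middle level near the centre were rare among the held runs. Over the 21 runs with 2 gaps the middle level stood between 28.6% and 65.1% of the way from the lowest to the highest, with a median of 49.03%. It was between 40% and 60% in 14 of them, but in 1 of the 5 held runs, the 6q25.1 run at 43.2%. The limit of 2 animals counts all animals on a side of a gap, so a middle level can be 1 animal. This was so in the held 12q24.23, 6q25.1 and 16p13.3 runs, while the middle level held 2 animals in 7q21.11 and 18 in 8q11.23. Among the 21 were runs in 19p13.3 and 3q27.1 in which 1 or more levels held only animals with values at 2 of the positions. With complete positions only, 20 runs had 2 gaps, and the place of their middle level was not computed.

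The held runs with 2 gaps were among the widest. The 12q24.23 run, chromosome 12, 120150382 to 120150488, ran from 0.214% in right 9 over a median of 42.4% to 83.8% in left 3 (SD 26.2 points, 21 animals). Below its gaps lay 12 animals at a mean of 28.0%, left 6 stood between them at 59.6%, and 8 animals had a mean of 76.6%. All 14 positions were higher in the top animals than in the bottom ones. Leaving out right 9 and left 3, which hold its ends, the SD was 23.7 points.

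The 6q25.1 run, chromosome 6, 149772476 to 149772563, had values at all 14 positions in each of its 21 animals, so missing positions have no part in it. Levels ran from 10.7% in right 12 over a median of 56.5% to 86.7% in right 1 (SD 25.1 points). Left 8, left 10, left 11, right 4, right 8, right 10, right 11 and right 12 had a mean of 18.6%. Left 9 stood alone at 39.6%, and the other 12 animals had a mean of 67.2%. Every position moved with the run, and the top animals exceeded the bottom ones by 28.1 to 66.4 points per position.

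The 7q21.11 run, chromosome 7, 83728548 to 83728682, had a long low side. Levels ran from 6.36% in right 8 over a median of 65.5% to 83.3% in right 7 (SD 24.7 points, 21 animals). Right 8, left 9, right 10 and right 4 lay below 20%, right 2 and left 5 at 28.5% and 29.6%, and 15 animals had a mean of 67.9%. The top animals were higher at all 11 positions.

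The 17q21.32 run, chromosome 17, 46748875 to 46749009, was the only one of the 650 with 3 wide gaps, and all 20 animals had values at all 11 positions. Its 4 levels held 7 animals at a mean of 16.9%, 7 at 40.9%, left 8 and right 6 at 60.4%, and left 1, left 4, left 9 and right 5 at 73.4% (SD 22.1 points). Of the 11 positions, 10 were higher in the top animals than in the bottom ones. Odd- and even-numbered positions correlated at 0.992 over the 20 animals.

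Other held runs had a single step. In the 9p22.3 run, chromosome 9, 15285575 to 15285710, left 9, left 10, right 9, right 10, right 11 and right 12 lay between 19.8% and 29.6%. The other 16 animals lay between 45.6% and 91.5% (SD 24.9 points, 22 animals), and all 11 positions were lower in the 6 animals. In the 13q12.11 run, chromosome 13, 22107624 to 22107758, the few were high instead. Left 4, left 5, left 10, left 11, right 2, right 10 and right 12 lay between 51.4% and 64.4%, and 16 animals between 11.8% and 40.9% (SD 18.6 points, 23 animals).

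In the 16p13.3 run, chromosome 16, 771663 to 772157, with 26 positions, right 4, right 10, right 11, right 12 and left 11 lay between 26.7% and 33.0%. Left 10 stood alone at 44.0%, and the other 17 animals lay between 56% and 76.7% (SD 16.9 points, 23 animals). The 11q13.3 run, chromosome 11, 68924736 to 68924946, ran from 11.2% in left 10 over a median of 60.2% to 81.5% in right 5 with no wide gap (SD 24.5 points, 23 animals). After centring it had 1 wide gap, and at the 7-point limit it had 5 levels.

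A single animal often carried the spread. In 387 of the 650 runs (59.5%) the SD fell to 10 points or less when the animal farthest from the median was left out. This held for 50 of the held runs (23.5%) and for 337 of the other 437 (77.1%). Leaving out left 3 and right 9 was among the checks that divided the runs, so this difference is partly fixed by the division. Left 3 or right 9 was the farthest animal in 2 of the 50 and in 176 of the 337. The animal was right 9 in 99 of the 387 runs and left 3 in 79. In the held runs it was left 4 in 10 cases and right 12 in 7. Near the limit of the rule, 3 runs inside it had SDs of 10.0044, 10.0036 and 10.0015 points (18p11.32, 5q31.3 and 19q13.42), and 3 runs outside it 9.98926, 9.98638 and 9.98539 (2p23.3, 19p13.11 and 17q25.3).

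The same animals tended to be high, or low, across held runs on different chromosomes. Averaged over held runs with centred levels, left 4 stood 10.4 points above the mean of the run, right 5 9.90 and left 1 9.51. Right 12 had a deviation of -11.1 points, right 11 of -9.28, left 10 of -8.68 and left 11 of -7.78. The 6q25.1, 9p22.3 and 16p13.3 runs all had right 10, right 11, right 12 and left 10 on their low side or between the levels. Other held runs did not follow this order. The 11p15.5 run had right 11 and left 10 in its top level and left 4 in its lowest. The 13q12.11 run had right 10, right 12, left 10 and left 11 in its high level. In the 7q21.11 run left 10 was at 81.7%, and in a 4p15.1 run left 10 was at 81.9% and left 4 at 30.2%.

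The direction was the same in separate parts of the genome. On the 107 held runs of odd-numbered chromosomes and the 106 of even-numbered ones, the mean deviation had the same sign in 23 of 23 animals. Over 21442 pairs of held runs on different chromosomes the median correlation over animals was 0.234, and 78.1% were above 0. In the intermediate runs outside the rule the median was 0.0332 and 55.0% were above 0. A first principal component held 30.2% of the variance of the held runs and 194 of the 213 loaded on it in one direction, against 14.8% and 60.1% in the intermediate runs outside. Without right 9 and left 3 it held 34.2%, 192 loaded in one direction and the median correlation was 0.270. In the intermediate runs outside the rule it then held 16.9%, with 69.1% loading in one direction and a median correlation of 0.0423. Over all 650 runs, also without these animals, it held 25.4%, the median correlation was 0.125 and 65.6% of pairs were above 0. Runs with a small spread give lower correlations for the same measuring error, which bears on the runs outside the rule.

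**Figure D4:**
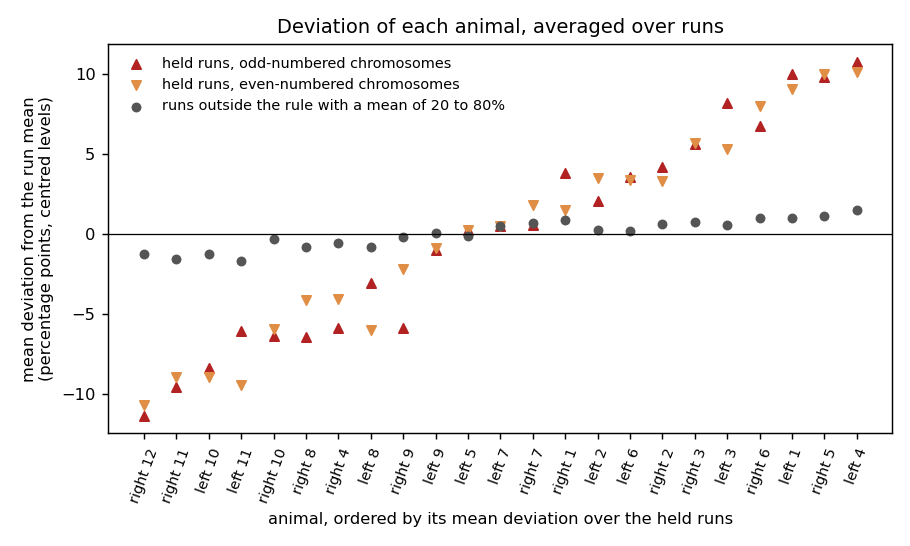
Mean deviation of each animal from the run mean (vertical, percentage points, centred levels), animals ordered by their mean over held runs; triangles are held runs on odd-numbered (up) and even-numbered (down) chromosomes, dots the runs outside the rule with a mean of 20 to 80%. Both kinds of triangle have the same sign in 23 of 23 animals, from -11.1 in right 12 to 10.4 in left 4 over all held runs, and the dots stay between -1.69 and 1.46.

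Runs outside the rule deviated mostly in the same direction, by far less. Over the intermediate ones left 4 deviated by 1.46 points, right 5 by 1.11 and left 1 by 0.994, while left 11 deviated by -1.69, right 11 by -1.57 and right 12 by -1.30. The sign was that of the held runs in 21 of 23 animals. All runs of an animal come from 1 library, so a property of the tissue piece or the library and one of the animal cannot be told apart.

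By label, the mean deviation overlapped widely between the groups. The mean over held runs was 1.06 ± 6.41 points in left samples (SD, n = 11) and -0.876 ± 6.83 in right samples (SD, n = 12). It was -0.215 ± 6.11 for identifiers starting with r (SD, n = 12) and 0.339 ± 7.30 for those starting with B (SD, n = 11). At the ends of the order, the highest animals, left 4, right 5 and left 1, had scores of -0.44, -0.37 and 0.38. The lowest, right 12, right 11 and left 10, had scores of 0.89, -0.6 and -0.83 and ages of 1.22, 1.1 and 1.21 years, against 1.43, 1.28 and 2.13 years in the highest. Missing positions were at 18.3% in left 4 and 14.2% in right 12, and between 1.85% and 2.83% in right 5, left 1, right 11 and left 10. The mean level over positions complete in all animals was 20.0%, 20.0% and 20.1% in left 4, right 5 and left 1, and 19.2%, 19.0% and 19.0% in right 12, right 11 and left 10. Other animals went against these differences. Right 10, with a deviation of -6.19 points, had a mean level of 20.3% and was 1.44 years old. Right 9, at -4.01 points, had a mean level of 20.4%, and left 3, at 6.77 points, one of 19.4%. The part of these in the deviation was not tested.

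The study's question was whether methylation follows anxious temperament. In limma fits of all 21254 runs of 3 or more positions, with score and age as terms, no run passed an adjusted p of 0.05 for the score (0%), and so none of the 650. At an unadjusted p under 0.05 there were 37 of the 650 (5.69%; 16 rising, 21 falling), where the share over all runs was 3.2%. Over the 7791 autosomal runs of 10 to 49 positions that entered the fits it was 2.71%. The same 7791 are meant below.

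The smallest p for the score was in 22q13.1, chromosome 22, 39016534 to 39016670. Levels ran from 38.4% in left 11, the animal with the highest score, over a median of 64.5% to 95.8% in right 4, the animal with the lowest. Right 4 had values at 6 of 10 positions, where the others averaged 76.9%, and its centred level was 81.4%. The SD of this run fell from 10.02 to 7.81 points on centring, so it was not a held run. The slope was -8.60 ± 2.26 points per unit of score (SE, n = 22, limma p = 0.00101, adjusted p = 1.0). The other 20 animals lay between 56% and 76%, so each end of the slope was a single animal. In 15q26.3, chromosome 15, 102064912 to 102065046, left 11 was again alone at 24.7%, with the other 19 animals between 46.5% and 75% and a slope of -8.36 ± 2.55 (SE, n = 20, limma p = 0.00383, adjusted p = 1.0).

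The 17p13.1 run, in which both strands varied together, had the third smallest p. Levels ran from 34.5% in right 4 over a median of 60.1% to 81.9% in right 6, and the slope was 12.1 ± 3.88 points per unit of score (SE, n = 23, limma p = 0.00499, adjusted p = 1.0). It was 9.66 among identifiers starting with r and 10.6 among those starting with B. Left 3, with a score of 0.29, was the second lowest at 37.9%, and left 11, with the highest score, was at 77.7%.

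**Figure D5:**
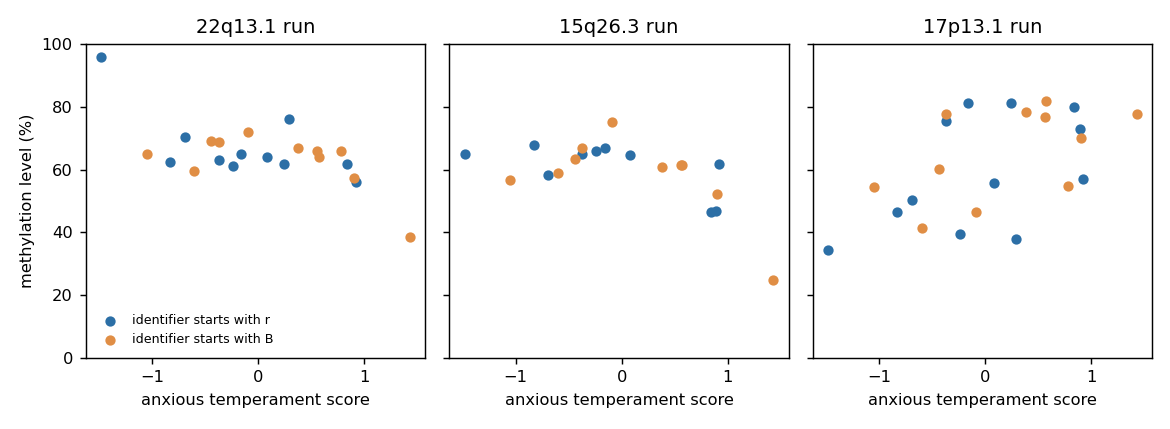
Methylation level of each animal (vertical, percent) against its anxious temperament score (horizontal, units of the score) in the 3 runs with the smallest p for the score, coloured by the first letter of the identifier. In the 22q13.1 and 15q26.3 runs 1 or 2 animals stand far from the rest at the ends of the score, and in the 17p13.1 run animals are spread from 34.5 to 81.9%.

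For age, 12 of all runs passed an adjusted p of 0.05 (0.0565%) and 0 of the 650. With centred means 14 of 21033 runs passed, among them 2 of the 645 members that entered that fit. Without left 1, 0 of all runs passed. At an unadjusted p under 0.05 there were 44 of the 650 (6.77%), where the share was 4.81% over all runs and 4.4% over autosomal runs of 10 to 49 positions, and 40 of the 44 rose with age. Slopes were positive in 505 of the 650 (77.7%) and in 60.5% of all runs; runs share their animals, so these slopes are not independent. Left 1 was the oldest animal by far and also one of the highest over the held runs, and without it 29 of the 650 (4.46%) had a p under 0.05, 21 rising and 8 falling, against 3.33% of all runs. Without it 486 slopes (74.8%) were positive, against 58.6% of all runs.

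The runs with the smallest p for age had left 1 at one end. The 2 that passed with centred means fell with age. In 16q23.1, chromosome 16, 77859777 to 77860029, left 1 was lowest at 34.3%, the median was 61.9% and left 5, one of the youngest, was highest at 85%. Per year of age it changed by -34.3 ± 6.74 points (SE, n = 22, adjusted p = 0.0634 by limma, 0.0421 with centred means) and -34.8 without left 1 (adjusted p = 1.0). In 21q22.3, chromosome 21, 43693353 to 43693456, left 1 was at 25% from 2 of 12 positions, and the slope of -38.5 ± 8.68 (SE, n = 22, adjusted p = 0.157 by limma, 0.0421 with centred means) became -22.0 without it. In 7q32.1, chromosome 7, 127991070 to 127991222, left 1 was highest at 48.9%, with a rise of 28.7 ± 7.28 per year (SE, n = 22, adjusted p = 0.300 by limma).

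Hemisphere and identifier series gave no adjusted call in any run (0% for both). Unadjusted p under 0.05 was met by 14 of the 650 for hemisphere (2.15%), where the share was 3.12% over all runs and 2.75% over autosomal runs of 10 to 49 positions. The smallest p was in another 21q22.3 run, chromosome 21, 47565767 to 47565894. It averaged 69.5% ± 10.1 in left samples (SD, n = 11) and 51.6% ± 15.4 in right samples (SD, n = 12), with overlapping values (limma adjusted p = 0.975). For the identifier series 22 of the 650 (3.38%) met an unadjusted p under 0.05, where the share was 3.48% over all runs and 3.23% over autosomal runs of 10 to 49 positions.

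The 4p15.1 run, chromosome 4, 35483420 to 35483614, was the widest of those with the smallest p for the series. It averaged 74.9% ± 7.21 in the r series (SD, n = 10) and 49.4% ± 22.7 in the B series (SD, n = 11, limma adjusted p = 0.962). The 7 lowest animals, from 16.8% to 54.2%, all had identifiers starting with B, and the 4 lowest of them had values at 8 of 14 positions. The other B animals lay among the r animals. Its SD was 21.2 points, and 19.9 after centring.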

How the data were processed

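The authors deposited a single table of levels, with methylation as a fraction from 0 to 1 per position and animal, multiplied by 100 here. Reads were aligned with Bismark 0.11.1 to hg19, per the submitters' processing notes. The table holds no read counts, so depth is unknown and no interval was computed. All 23 sample columns were used and 0 were left out. Groups, ages and scores came from the labels, and each animal is a separate monkey.

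Each run's level was the plain mean of an animal's values. Centred means first subtract the mean of each position over animals and add back the mean of the run. Runs of at least 3 positions, values in 20 or more animals and a range of 5 points or more (21254) entered 1 fit by limma (version 3.58.1, R 4.3.3), with a variance trend and Benjamini-Hochberg adjustment over all of them, 2-sided, and called at an adjusted p under 0.05. Score and age were fitted together; hemisphere or series was added to them. The fit was tested on simulated data. Runs were handled in Python 3.11.15 with pandas 2.3.3 and numpy 2.4.6, files read with data.table (1.17.8), figures drawn with matplotlib 3.10.9. Bands are those of circlize 0.4.16.

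The members, lists and tests were chosen with earlier results of these data known. Named runs were picked as the 8 with the largest SD and that with the largest fall on centring. The 6 with the widest gaps among runs with 1 gap, and 6 among runs with 2, were also taken. So were 3 on each side of the limit and 3 with the smallest p per term. Not all are described above. The 12p13.32 and 15q22.2 runs ranked 7 and 8 by SD, with 23.7 and 23.5 points. Neither was held, because the 50% check left 19 animals in each, with SDs of 24.4 and 23.7 points. The held 8q11.23 run had right 9 at 0% and an SD of 18.4 points, 15.1 without right 9 and left 3. The 19q13.2 run and another 11p15.5 run, both with 2 gaps, are not described. The 13q12.11, 16p13.3, 17q21.32, 19p13.2 and 19q13.43 runs were chosen after their values were seen. Alternatives were other spreads, gaps, joins and positions, the logit scale, other covariates and the omission of animals. Gene names were not used, for want of an annotation of this build.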

Additional observations from a re-analysis of the deposited data

How the results depend on the processing

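The number of runs depended on the SD limit and on how missing positions were treated. It was 650 with plain means, 328 when animals needed 50% of the positions, 392 with complete positions only (167 of them among the 650, of which 426 have no complete position), 123 at an SD above 15 and 1203 at an SD above 8. Runs with 1 wide gap numbered 192, and 100 with centred means, 77 under the 50% rule, 98 with complete positions, 50 at an SD above 15, 95 with gaps of 15 points and 86 with 3 animals on each side. Runs with 2 wide gaps numbered 21, and 7 with centred means, 7 under the 50% rule and 20 with complete positions. They numbered 10 without right 9 and left 3 and 10 at an SD above 15. With gaps of 15 points there were 3, with gaps of 7 points 68, and with 3 animals on each side 7. Runs resting on 1 animal numbered 387, and 251 with centred means, 162 under the 50% rule, 251 without right 9 and left 3, 163 with complete positions, 80 at an SD above 15 and 589 at an SD above 8. Counts differ by construction where a stricter limit leaves fewer runs; the cause was not tested elsewhere. Of the 40 named runs, centred means moved the SD of 11, the 50% rule that of 13 and the omission of right 9 and left 3 that of 4, while complete positions moved 2 of the 6 that had any. At an unadjusted p under 0.05 the count for the score was 37, and 18 under the 50% rule, and that for age 44, and 29 without left 1. The number of all runs passing an adjusted p of 0.05 for age by limma was 12, and 0 without left 1. It was 1 under the 50% rule, 4 without right 9 and left 3, 3 with the series as a term and 6 with hemisphere as a term. Centred means gave 14, the logit scale 15 and no variance trend 9. A fit of only the autosomal runs of 10 to 49 positions gave 3 of 7791. Under the remaining alternatives that were run, the counts above and the unadjusted ones for hemisphere and series stayed within 1.5 times of the reported one. A higher coverage minimum was not run, since the table holds no read counts, and the depth behind each value limits what a single animal's level can show. Leaving out members resting on 1 animal, the coherence along runs, the series fits and the 3 checks together were chosen after seeing the data. No paired analysis was possible because left and right samples come from different monkeys, and their numbers were given here only as names.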

Other observations

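Wide spread was more frequent in shorter runs. Of 13406 autosomal runs of 3 to 9 positions with values in 20 or more animals, 2301 (17.2%) had an SD above 10 points, and 1561 after centring. Of 945 autosomal runs of 50 or more positions, 10 (1.06%) did, and 5 after centring. On the X chromosome 24 of 433 runs of 10 to 49 positions (5.54%) had such a spread, and 14 after centring. Fewer values enter the mean of a short run, and the part of this in the counts was not tested.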
